A study of Homo sapiens with 8 samples.

Results

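The comparison described here set HIF1A-/- cells against wild-type (WT) cells in normoxia, the state before any hypoxic challenge. HCT116 cells are a line of human colorectal cancer in wide use, and the HIF1A-/- derivative was made by homologous recombination with a viral vector that disrupted internal exons of HIF1A, the gene of the oxygen-regulated subunit of HIF1. Nascent transcription was profiled by PRO-seq, in which polymerases held in isolated nuclei extend their RNA with labelled nucleotides, so reads count engaged polymerases and not accumulated RNA. The members were the 2 libraries of HIF1A-/- cells and the 2 of WT cells kept in normoxia, 4 of the 8 libraries of the experiment, and all cultures received the vehicle DMSO. The remaining 4 libraries, of both lines after 90 min at 1% O2, served to estimate the spread and as a second look at the same lines. Each line was sampled as 2 independent preparations of nuclei per condition. Whether the HIF1A-/- line stems from 1 clone is not given in the sources used here, so effects of the missing gene and other differences between the lines cannot be told apart. Of 23193 genes in the tables, 22178 lay on autosomes, and 16184 gene bodies and 14746 regions around the transcription start site (TSS) passed the rule of more than 0.5 reads per 1000000 (CPM) in at least 2 of the 8 libraries.

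HIF1 is a dimer of HIF1A and the constitutive partner ARNT that binds short hypoxia response elements and raises transcription of genes for glucose uptake, glycolysis, angiogenesis and survival at low oxygen. When oxygen is plentiful, prolyl hydroxylases of the EGLN family mark HIF1A for recognition by VHL and degradation, so little of the protein is present. The normoxia comparison asks how far transcription differs between lines with and without the gene while the pathway is mostly off.

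Interferon-stimulated genes and known HIF target genes were the groups for which promoter sequence is shown, the former because it held the most called genes of the lists examined, the latter because HIF1 binds them. Each window holds the 250 bases before the gene's start site in the count tables, from GRCh37, written 5′ to 3′ on the gene's strand. In IFI6 (chr1:27998725-27998974, minus strand), IFIT1 (chr10:91152052-91152301, plus strand) and OAS3 (chr12:113375987-113376236, plus strand) capitals mark the core of the interferon-stimulated response element, searched as GAAA, any 2 bases and GAAA on both strands.
IFI6: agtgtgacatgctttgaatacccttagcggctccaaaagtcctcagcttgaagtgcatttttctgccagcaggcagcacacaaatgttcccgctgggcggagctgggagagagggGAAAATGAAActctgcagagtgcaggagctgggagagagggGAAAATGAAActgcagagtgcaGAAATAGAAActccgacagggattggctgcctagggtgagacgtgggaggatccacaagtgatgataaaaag
IFIT1: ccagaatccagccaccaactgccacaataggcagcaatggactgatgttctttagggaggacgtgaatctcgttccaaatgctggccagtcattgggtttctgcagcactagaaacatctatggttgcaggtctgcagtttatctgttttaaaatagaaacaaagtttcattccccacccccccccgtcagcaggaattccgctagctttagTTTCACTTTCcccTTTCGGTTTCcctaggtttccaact
OAS3: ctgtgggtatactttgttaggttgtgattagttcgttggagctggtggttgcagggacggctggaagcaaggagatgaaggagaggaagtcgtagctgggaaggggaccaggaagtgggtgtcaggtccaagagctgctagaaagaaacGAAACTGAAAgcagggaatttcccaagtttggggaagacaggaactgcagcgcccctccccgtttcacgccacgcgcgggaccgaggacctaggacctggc
In PDK1 (chr2:173420446-173420695, plus strand) and DDIT4 (chr10:74033426-74033675, plus strand) capitals mark the core of the hypoxia response element, searched as ACGTG and GCGTG on both strands.
PDK1: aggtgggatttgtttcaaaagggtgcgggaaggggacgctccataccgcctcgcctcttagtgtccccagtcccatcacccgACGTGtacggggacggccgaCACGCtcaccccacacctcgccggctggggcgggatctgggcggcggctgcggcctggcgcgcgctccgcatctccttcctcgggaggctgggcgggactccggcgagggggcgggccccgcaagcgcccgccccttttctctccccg
DDIT4: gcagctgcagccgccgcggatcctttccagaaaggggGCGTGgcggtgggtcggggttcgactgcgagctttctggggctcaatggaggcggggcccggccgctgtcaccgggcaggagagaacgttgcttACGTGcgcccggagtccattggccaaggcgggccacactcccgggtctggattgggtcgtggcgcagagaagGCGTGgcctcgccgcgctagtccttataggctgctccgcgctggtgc
The interferon core occurred in 2.39% of the windows of all 16184 genes tested, in 12 (41.4%) of the 29 tested interferon and antigen presentation genes, and in 4 (30.8%) of the 13 that were called. The interferon windows shown all hold a match, unlike those of most called genes of that list. The hypoxia core was common, with a match in 51.9% of all windows, 51.9% of those of genes called higher and 48.5% of those of genes called lower. It occurred in 27 (77.1%) of the 35 tested HIF target genes outside glycolysis and in 14 (60.9%) of the 23 tested genes of glucose uptake and glycolysis. An ETS core (CCGGAAG) occurred in 10.2% of all windows, 7.28% of the higher and 4.07% of the lower genes. An AP-1 element (TGANTCA) occurred in 4.73% of all windows, 6.42% of the higher and 6.61% of the lower genes. A match of letters is a description of the window and not evidence of binding.

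The deposited values were raw read counts, which are given here as CPM after scaling by TMM, edgeR's correction for library composition, whose gene body factors were 0.954 to 1.02. The 4 libraries held between 18125234 and 21999565 gene body reads, and between 2783581 and 4436063 TSS reads. The TSS regions held 17.6% and 17.4% of the counted reads in WT replicates 1 and 2, but 11.2% and 16.9% in HIF1A-/- replicates 1 and 2. HIF1A-/- replicate 1 therefore stood apart. Epithelial markers (EPCAM, CDH1, keratins and claudins) summed to 936 and 1030 CPM in WT and 1210 and 1130 CPM in HIF1A-/- libraries. Most of this sum was KRT8 (mean 351 CPM in WT, 432 CPM in HIF1A-/- cells) and KRT19 (294 and 448 CPM). Of the 7 tested, 1 was called higher and 3 lower (57.1%, against 9.94% of all gene bodies). Only 3 of the 7 had a positive log2 fold change, and the median was -0.33. Fibroblast markers summed to 33.4 and 39.4 CPM in WT and 23.1 and 42.6 CPM in HIF1A-/- cells, most of it COL1A1, while COL1A2 had no read in any of these libraries except HIF1A-/- replicate 2. Leukocyte markers summed to 13.0 and 14.4 CPM against 15.3 and 11.7 CPM with PTPRC at 0.328 CPM or lower throughout, and endothelial markers to 26.4 and 33.8 CPM against 22.7 and 38.7 CPM.

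Transcription differed between the lines at many genes in normoxia. With the replicate number as a block, edgeR's quasi-likelihood test called 701 gene bodies higher in HIF1A-/- cells (4.33% of 16184) and 908 lower (5.61%) at an FDR of 10%, 9.94% in either direction. Of these, 207 were at least 2-fold higher and 409 at least 2-fold lower, and the median log2 fold changes were 0.69 and -0.88, while the median of all gene bodies tested was 0.01. Without the block 119 were called higher (0.735%) and 145 lower (0.896%), 1.63% in either direction, and all 264 of them were among those called with it, in the same direction. The count rests on each library: without WT replicate 1 it was 256 higher and 467 lower, without WT replicate 2 it was 333 and 374, without HIF1A-/- replicate 1 it was 382 and 397, and without HIF1A-/- replicate 2 it was 461 and 734. Both libraries of one line lay above both of the other at 1452 (90.2%) of the 1609 called gene bodies and at 32.2% of all tested.

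**Figure D1:**
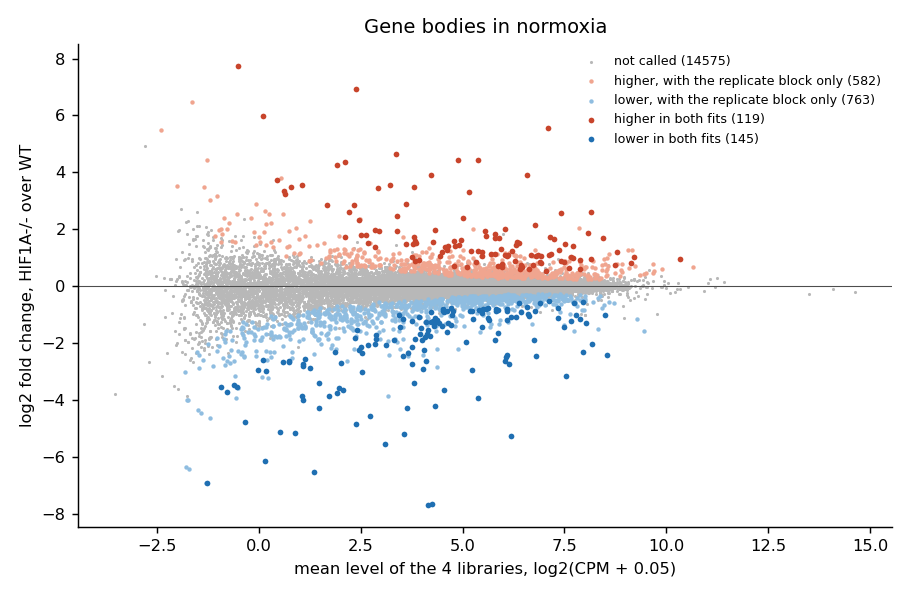
Mean level of each of the 16184 gene bodies in the 4 normoxia libraries (x, log2 of CPM plus 0.05) against the log2 fold change of HIF1A-/- over WT (y), 1 point per gene. Dark points were called with and without the replicate block (119 higher, 145 lower), pale ones with it only; calls on both sides of 0 extend over the whole range of levels.

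HIF1A itself (chr14:62163119-62214977, plus strand) was transcribed in both lines. Its gene body had 137 and 148 CPM in WT and 164 and 139 CPM in HIF1A-/- replicates 1 and 2, so the groups overlapped. The log2 fold change was 0.09 (SE 0.130, n = 2 libraries per line, edgeR adjusted p = 0.741), and -0.08 without HIF1A-/- replicate 1. The table gives 1 count for the whole gene body, which does not resolve the disrupted exons, so this value does not check the genotype.

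Of the 13 tested members of the HIF pathway, HIF1A included, 1 was called, against 9.94% of all gene bodies. EPAS1, which encodes the alternative oxygen-regulated subunit HIF2A, had 58.9 and 62.7 CPM in WT and 26.2 and 47.4 CPM in HIF1A-/- cells. Both HIF1A-/- libraries were lower, replicate 1 by more. Its log2 fold change was -0.78 (SE 0.170, edgeR adjusted p = 0.0342), which was 0.544 without the block, and the call was lost without WT replicate 1 or without HIF1A-/- replicate 1. The partner ARNT had 59.3 and 58.6 CPM in WT and 55.4 and 74.1 CPM in HIF1A-/- cells, an overlap. The prolyl hydroxylase EGLN1 had 142 and 116 CPM against 109 and 101 CPM, with no overlap but no call (log2 fold change -0.30, edgeR adjusted p = 0.231). EGLN3 (log2 fold change -0.14), HIF1AN, the asparaginyl hydroxylase of HIF1A (0.23), VHL (-0.03), the coactivators EP300 (0.10) and CREBBP (0.14), CITED2, which competes for them (0.07), and the Mediator kinase CDK8 (0.06) were not called either.

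Of 35 known HIF target genes outside glycolysis, 2 were called higher and 1 lower in normoxia (8.57%, near the 9.94% of all gene bodies), with a median log2 fold change of -0.06. The higher count was 4 without WT replicate 1, 0 without WT replicate 2 and 1 without HIF1A-/- replicate 1, and the lower count was 0 without WT replicate 1 or HIF1A-/- replicate 1. VEGFA, the angiogenic growth factor, had 54.4 and 46.0 CPM in WT and 36.5 and 38.2 CPM in HIF1A-/- cells, lower in both HIF1A-/- libraries. Its log2 fold change of -0.43 (SE 0.111, edgeR adjusted p = 0.0653, and 0.332 without the block) lost its call without WT replicate 1 and without either HIF1A-/- library. ANGPTL4, a secreted inhibitor of lipoprotein lipase, had 10.3 and 9.93 CPM in WT and 21.2 and 26.9 CPM in HIF1A-/- cells, the higher line being the one without HIF1A. Its log2 fold change was 1.22 (SE 0.291, edgeR adjusted p = 0.0468), and the call was lost without the block (0.323), without WT replicate 2 and without HIF1A-/- replicate 1. KDM4B, a histone lysine demethylase, had 193 and 208 CPM against 226 and 276 CPM (log2 fold change 0.32, edgeR adjusted p = 0.0764), a call that leaving out any 1 of the 4 libraries ended. CA9, which encodes a carbonic anhydrase, was near the detection limit in WT cells, at 0.197 and 0.326 CPM, and was not called (edgeR adjusted p = 0.123). The list of 35 leaves out DDIT4, ETS1 and ELF3, which the study names as HIF1A targets. Counted in other lists, they were called lower (log2 fold changes -1.06, -2.24 and -2.20). SLC2A1 and SLC2A3, also named by the study, were counted under glucose uptake and called higher.

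Of 23 tested genes of glucose uptake and glycolysis, 2 were called higher and 1 lower (13%, near the 9.94% of all gene bodies). The 2 called higher in the cells without HIF1A were the glucose transporter genes SLC2A3 and SLC2A1. SLC2A3, which encodes the high-affinity transporter GLUT3, had 2.02 and 2.71 CPM in WT and 39.3 and 30.6 CPM in HIF1A-/- cells. SLC2A1, which encodes the widely expressed GLUT1, had 98.0 and 135 CPM in WT and 472 and 377 CPM in HIF1A-/- cells. At its TSS SLC2A1 was not called (log2 fold change 0.32, edgeR adjusted p = 0.287), unlike SLC2A3. In the gene bodies the groups did not overlap for either gene. The log2 fold changes were 3.91 for SLC2A3 (SE 0.461, edgeR adjusted p = 0.00210) and 1.87 for SLC2A1 (SE 0.239, edgeR adjusted p = 0.00312), and both were also called without the block and without any 1 of the normoxia libraries. PDK1, the kinase that restrains entry of pyruvate into mitochondria, went the other way, with 31.7 and 38.4 CPM in WT and 20.3 and 25.98 CPM in HIF1A-/- cells. Both HIF1A-/- libraries were lower (log2 fold change -0.60, SE 0.098, edgeR adjusted p = 0.0101, and 0.293 without the block). The remaining 20 of the 23 tested genes of glucose uptake and glycolysis were not called, and the median of the list was 0.03.

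Of the mTORC1 brakes, 0 of 12 were called higher and 2 lower (16.7%, against 9.94% of all gene bodies), with a median of 0.04, and 1 was called lower without WT replicate 2 or without either HIF1A-/- library. DDIT4, whose product REDD1 restrains mTORC1 in stress, had 21.1 and 25.5 CPM in WT and 8.15 and 15.1 CPM in HIF1A-/- cells. Its lower level in both HIF1A-/- libraries gave a log2 fold change of -1.06 (SE 0.190, edgeR adjusted p = 0.0157), which was not called without the block (0.518). DEPTOR, an mTOR-binding inhibitor, had a log2 fold change of -0.75 (edgeR adjusted p = 0.0629, and 0.762 without the block), and the call was lost without WT replicate 2 and without either HIF1A-/- library.

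The genes with the smallest p or largest change included several transcribed in one line and close to silent in the other. TENM3 (chr4:183165584-183724177, plus strand), which encodes a teneurin, a transmembrane protein of neuronal wiring, had 5.72 and 5.59 CPM in WT and 259 and 275 CPM in HIF1A-/- cells. These levels did not overlap and lay 47.1-fold apart (log2 fold change 5.56, SE 0.103, edgeR adjusted p = 1.295e-07). AOAH, which encodes a lipase that inactivates bacterial endotoxin, had 2.96 and 4.40 CPM in WT and 79.1 and 79.5 CPM in HIF1A-/- cells (log2 fold change 4.44, SE 0.162). ELMO1, its neighbour on chromosome 7 and a partner of DOCK proteins in RAC activation, had 5.72 and 7.55 CPM against 62.1 and 68.3 CPM (log2 fold change 3.30, SE 0.142). DKK1, a secreted antagonist of Wnt signalling, had 44.9 and 53.3 CPM in WT and 323 and 263 CPM in HIF1A-/- cells. In each of these genes all HIF1A-/- values exceeded all WT values, and the log2 fold change of DKK1 was 2.57 (SE 0.139, edgeR adjusted p = 4.24e-05).

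MYBPH, which encodes a myosin-binding protein, had at most 2 reads in either WT library and 8.34 and 12.3 CPM in HIF1A-/- cells. Against a floor of 3 reads per library it was at least 66.3-fold higher. The uncharacterised LOC340512 had 1.43 and 3.85 CPM in WT and 44.3 and 67.9 CPM in HIF1A-/- cells (log2 fold change 4.45), and the antisense RNA gene CCDC144NL-AS1 had 0.543 and 1.03 CPM against 15.2 and 24.01 CPM (4.63). KRT20, a keratin of differentiated intestinal cells, had 0.197 and 0.597 CPM in WT and 6.004 and 10.2 CPM in HIF1A-/- cells (log2 fold change 4.35, SE 0.365, edgeR adjusted p = 3.793e-04). For all of these the lines did not overlap.

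In the other direction, GRIN2B (chr12:13714409-14132021, minus strand), which encodes a subunit of the NMDA glutamate receptor, had 123 and 159 CPM in WT and 3.19 and 4.26 CPM in HIF1A-/- cells. It was 37.9-fold lower in the cells without HIF1A (log2 fold change -5.24, SE 0.135, edgeR adjusted p = 9.985e-07). ZNF91, a KRAB zinc finger repressor of retrotransposons, had 32.7 and 37.2 CPM in WT and 0.143 and 0.187 CPM in HIF1A-/- cells, a log2 fold change of -7.68 (SE 0.255). ADGRF1, an adhesion G protein-coupled receptor, had 27.9 and 48.2 CPM against 0.143 and 0.234 CPM, a log2 fold change of -7.64 (SE 0.260). LINC00673, a long non-coding RNA gene downstream of SOX9, had 267 and 400 CPM in WT and 32.0 and 42.4 CPM in HIF1A-/- cells (log2 fold change -3.15, SE 0.089, edgeR adjusted p = 1.424e-06). SAMD3 (log2 fold change -3.92), the zinc finger genes ZNF704 (-2.72) and ZNF675 (-5.19) and the natural killer receptor readthrough gene KLRC4-KLRK1 (-5.55) completed the leading lower genes. As the naming rule required, each had both WT libraries above both HIF1A-/- libraries.

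**Figure D2:**
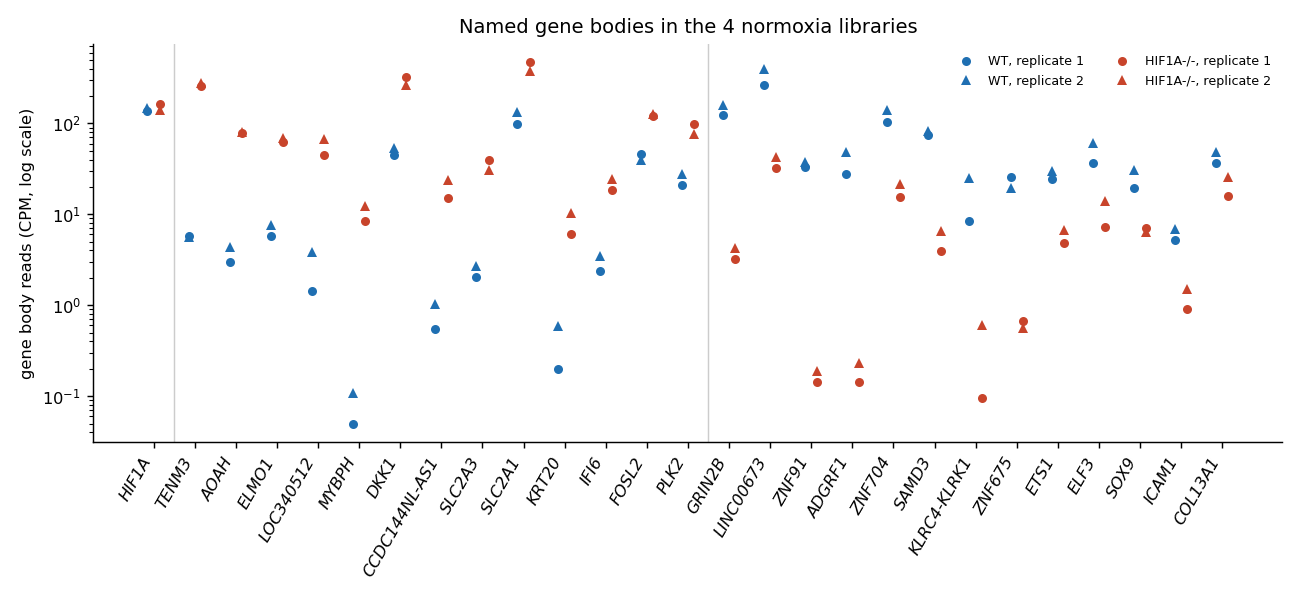
Gene body level (y, CPM on a log axis) of HIF1A, of 13 genes called higher and of 13 called lower in HIF1A-/- cells, with 1 point for each of the 4 normoxia libraries. Blue marks WT and red HIF1A-/- cells, circles replicate 1 and triangles replicate 2. HIF1A overlaps between the lines. Every other gene shown is separated, which the naming rule required of all but ETS1.

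At the limit of counting, 10 called genes had 3 reads or fewer in both WT libraries and 25 had 3 or fewer in both HIF1A-/- libraries, and folds against them are bounds that cover counting error only. CHI3L1, which encodes a secreted chitinase-like glycoprotein and adjoins MYBPH, had 0 and 0.0543 CPM in WT and 1.62 and 2.39 CPM in HIF1A-/- cells, at least 12.9-fold higher. LOC90768, next to TENM3 on chromosome 4, was at least 8.34-fold higher. On the other side, ZNF502 had 4.29 and 5.65 CPM in WT and 0.0477 and 0.0468 CPM in HIF1A-/- cells, at least 35.1-fold lower. KLRC3, a natural killer receptor gene, was at least 18.9-fold lower, and C2CD4D at least 14.9-fold lower.

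Many genes of interferon response and antigen presentation were called higher in HIF1A-/- cells. Of 29 tested, 13 (44.8%) were called higher and 0 lower, against 4.33% and 5.61% of all gene bodies, and the median log2 fold change was 0.59 against 0.01 over all, with 25 of the 29 above 0. IFI6, an interferon-induced mitochondrial protein, had 2.37 and 3.47 CPM in WT and 18.6 and 24.4 CPM in HIF1A-/- cells. IFIT1, which binds foreign RNA ends, had 2.32 and 4.07 CPM against 12.5 and 22.8 CPM. OAS1, an activator of RNase L, had 0.197 and 0.326 CPM against 2.00 and 4.17 CPM. All HIF1A-/- values exceeded all WT values in these genes, with log2 fold changes of 2.88 (SE 0.196), 2.46 (SE 0.183) and 3.50 (SE 0.427), and edgeR adjusted p of 1.306e-04 for IFI6, 2.00e-04 for IFIT1 and 0.00241 for OAS1.

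The transcription factors IRF7 and IRF9 moved the same way. IRF7, which drives interferon genes, had 2.02 and 3.47 CPM in WT and 7.96 and 11.1 CPM in HIF1A-/- cells, without overlap. Its log2 fold change was 1.81 (SE 0.190, edgeR adjusted p = 0.00122), and IRF9, a subunit of the interferon-activated complex, had 0.90, a call lost without WT replicate 2. DDX58, which encodes the RNA sensor RIG-I, had 37.2 and 46.3 CPM against 72.0 and 107 CPM (log2 fold change 1.09, SE 0.101). The antigen presentation genes HLA-E (0.59) and TAP1 (0.54) were called, the latter not when any 1 library was left out, while HLA-B (0.55), HLA-C (0.46) and B2M (-0.13) were not. At 6 of the 13 genes the call held without the block. The list had 8 calls higher without WT replicate 1, 7 without WT replicate 2, 11 without HIF1A-/- replicate 1, and 9 higher with 1 lower without HIF1A-/- replicate 2. In the hypoxia libraries, in which the calls made up 28.4% of all gene bodies (14.2% higher, 14.2% lower), 21 of the 29 were called higher and 0 lower. In normoxia, DESeq2 also called 13 higher and 0 lower, and 19 were higher and 1 lower at an unadjusted p under 0.05.

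Of 19 ETS family transcription factors, 0 were called higher and 6 (31.6%) lower, against 4.33% and 5.61% of all gene bodies, with a median of -0.24. ETS1, a factor of invasion and angiogenesis, had 24.3 and 30.3 CPM in WT and 4.81 and 6.79 CPM in HIF1A-/- cells (log2 fold change -2.24, SE 0.164, edgeR adjusted p = 1.852e-04). ELF3, an epithelium-specific factor, had 36.3 and 60.1 CPM against 7.29 and 14.0 CPM (log2 fold change -2.20, SE 0.108, edgeR adjusted p = 2.735e-05, and 0.106 without the block). EHF, its relative in epithelia, had 21.3 and 37.95 CPM against 8.43 and 13.8 CPM (log2 fold change -1.40, SE 0.143). None of the 3 overlapped between the lines. ELF1 (-0.30), ETV6 (-0.43) and ETV7 (-0.90) were called with edgeR adjusted p of 0.0972, 0.0634 and 0.0682. Leaving out any 1 of the 4 libraries ended the calls of ELF1 and ETV7. That of ETV6 was lost without WT replicate 1, WT replicate 2 or HIF1A-/- replicate 1. At an unadjusted p under 0.05 the list had 2 genes higher and 8 lower, and DESeq2 called 0 and 4. Without the block 1 of the 19 was called, ETS1, and 3 were called without WT replicate 1, without WT replicate 2 or without HIF1A-/- replicate 1.

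Of 23 epithelial junction and keratin genes, 8 were called lower and 2 higher, against 5.61% and 4.33% of all gene bodies, with a median of -0.26. EPCAM, an epithelial adhesion molecule, had 86.8 and 87.5 CPM in WT and 63.4 and 52.0 CPM in HIF1A-/- cells (log2 fold change -0.60, SE 0.103, edgeR adjusted p = 0.0131), a call lost without WT replicate 2. GRHL2, a factor of epithelial identity, had 208 and 212 CPM against 135 and 160 CPM (-0.51), a call lost without HIF1A-/- replicate 1. The desmosome gene DSP was higher, with 92.1 and 103 CPM against 124 and 149 CPM (log2 fold change 0.48, SE 0.084, edgeR adjusted p = 0.0132). These groups did not overlap, yet without the block 0 of the 23 were called. The lower count was 3 without WT replicate 2 and 5 without WT replicate 1 or without HIF1A-/- replicate 1. CDH1, which encodes E-cadherin, had 102.0 and 101.5 CPM against 68.4 and 95.9 CPM and was not called (edgeR adjusted p = 0.153), although it was called lower without WT replicate 2 and without HIF1A-/- replicate 2.

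Mesenchymal genes were split, with 2 of 11 called higher and 3 lower (45.5%, against 9.94% of all gene bodies). ZEB1, a repressor of E-cadherin, had 55.5 and 50.8 CPM against 73.2 and 70.8 CPM (log2 fold change 0.44, edgeR adjusted p = 0.0632), a call that leaving out any 1 library ended. TWIST2 had 0.691 and 1.79 CPM against 0.0953 and 0.328 CPM (log2 fold change -2.50), lost without WT replicate 2 or HIF1A-/- replicate 1. Of the 13 tested genes of intestinal differentiation, 2 were called higher, KRT20 and KLF4 (log2 fold change 1.14), and 1 lower. Collagens and laminins had 5 of 25 called higher and 2 lower (28.0%) with a median of 0.14. COL6A3 had 0.148 and 0.434 CPM against 1.48 and 2.15 CPM (log2 fold change 2.65), and COL13A1, a transmembrane collagen, had 36.5 and 47.9 CPM against 15.9 and 25.7 CPM (-1.04). Without the block, KRT20 was the only call left among the genes of these 3 lists. With 1 library left out, the mesenchymal list had 1 to 3 calls, and collagens and laminins 2 to 4.

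MAPK and AP-1 response genes had 4 of 24 called higher and 1 lower (20.8%, against 9.94% of all gene bodies), with a median of 0.26. They had 2 higher and 0 lower without WT replicate 1 or HIF1A-/- replicate 1, and 3 and 0 without WT replicate 2. FOSL2, an AP-1 subunit, had 46.4 and 40.0 CPM in WT and 122 and 125 CPM in HIF1A-/- cells (log2 fold change 1.51, SE 0.109, edgeR adjusted p = 1.698e-04). Both HIF1A-/- libraries were higher, and SPRY4, a feedback inhibitor of receptor tyrosine kinase signalling, was also called higher (0.65). PLK2, a p53-induced kinase, had 21.2 and 27.8 CPM against 98.4 and 75.6 CPM (log2 fold change 1.82, SE 0.218, edgeR adjusted p = 0.00220), 1 of 2 called among 24 p53 targets. Of 17 Wnt target and feedback genes, DKK1 and CCND1 were called higher and SOX9 lower. CCND1, which encodes cyclin D1, had 274 and 305 CPM in WT and 1082 and 455 CPM in HIF1A-/- cells, and its call was lost without WT replicate 1 or the high HIF1A-/- replicate 1. SOX9, a factor of intestinal crypt cells, had 19.6 and 31.0 CPM against 7.05 and 6.46 CPM (log2 fold change -1.87, SE 0.252). Without the block, FOSL2, PLK2, DKK1 and SOX9 were the calls left in these lists.

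NF-kappaB targets had 1 of 18 called higher and 3 lower (22.2%, against 9.94% of all gene bodies), and 0 and 1 without WT replicate 1 or HIF1A-/- replicate 1. RELB, an NF-kappaB subunit and the gene called higher, had 24.3 and 24.8 CPM in WT and 43.4 and 34.4 CPM in HIF1A-/- cells (log2 fold change 0.66). ICAM1, a leukocyte adhesion ligand, had 5.23 and 6.84 CPM in WT and 0.905 and 1.498 CPM in HIF1A-/- cells, with no overlap (log2 fold change -2.32, SE 0.276, edgeR adjusted p = 0.00215). Among 17 NRF2 targets 1 was called, SLC7A11, the cystine transporter, with 75.3 and 69.3 CPM against 17.3 and 40.5 CPM (log2 fold change -1.42). Its call was lost without WT replicate 1 or HIF1A-/- replicate 1. Of 26 genes of cholesterol and fatty acid synthesis 3 were called lower, led by the elongase ELOVL6 with 266 and 245 CPM against 169 and 170 CPM (-0.59). Without the block, ICAM1 and ELOVL6 were the calls left in these lists.

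Few genes of the housekeeping programmes were called. Over all gene bodies the share was 9.94%, which in lists of this size also means few calls, so the low counts do not set these lists apart. In the fit with the block, 0 of 32 cytosolic ribosomal protein genes, 0 of 24 genes of ribosome biogenesis and 0 of 20 cytosolic chaperone genes were called, with medians of 0.002, -0.03 and 0.14. The ribosomal protein median was 0.21 in the pair of replicates 1 and -0.21 in that of replicates 2, so the pairs differed in sign. At an unadjusted p under 0.05 none of the ribosomal protein genes, 1 of the biogenesis genes and 1 of the chaperone genes passed, and DESeq2 also called 0 in each list. Without WT replicate 1, however, 9 ribosomal protein genes and 3 biogenesis genes were called lower, with medians of -0.17 and -0.26, and without WT replicate 2 these lists had 1 call each, higher, with medians of 0.20 and 0.23. Nuclear oxidative phosphorylation genes had a median of -0.04, with 13 of 37 above 0. The median was -0.16 for DNA replication and E2F genes (3 of 25 above 0) and -0.12 for ATF4 and amino acid response genes (5 of 20). At an unadjusted p under 0.05 these lists had 1 higher and 3 lower, 0 and 6, and 2 and 1. Of the 37 oxidative phosphorylation genes 1 was called lower (NDUFA4, log2 fold change -0.63), of the 25 DNA replication and E2F genes 1 (MCM6, -0.44), and of the 20 ATF4 and amino acid response genes 1 (TRIB3, -0.64). Each of those 3 calls was lost without WT replicate 1 or WT replicate 2, those of MCM6 and TRIB3 also without HIF1A-/- replicate 1, and that of NDUFA4 also without HIF1A-/- replicate 2.

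**Figure D3:**
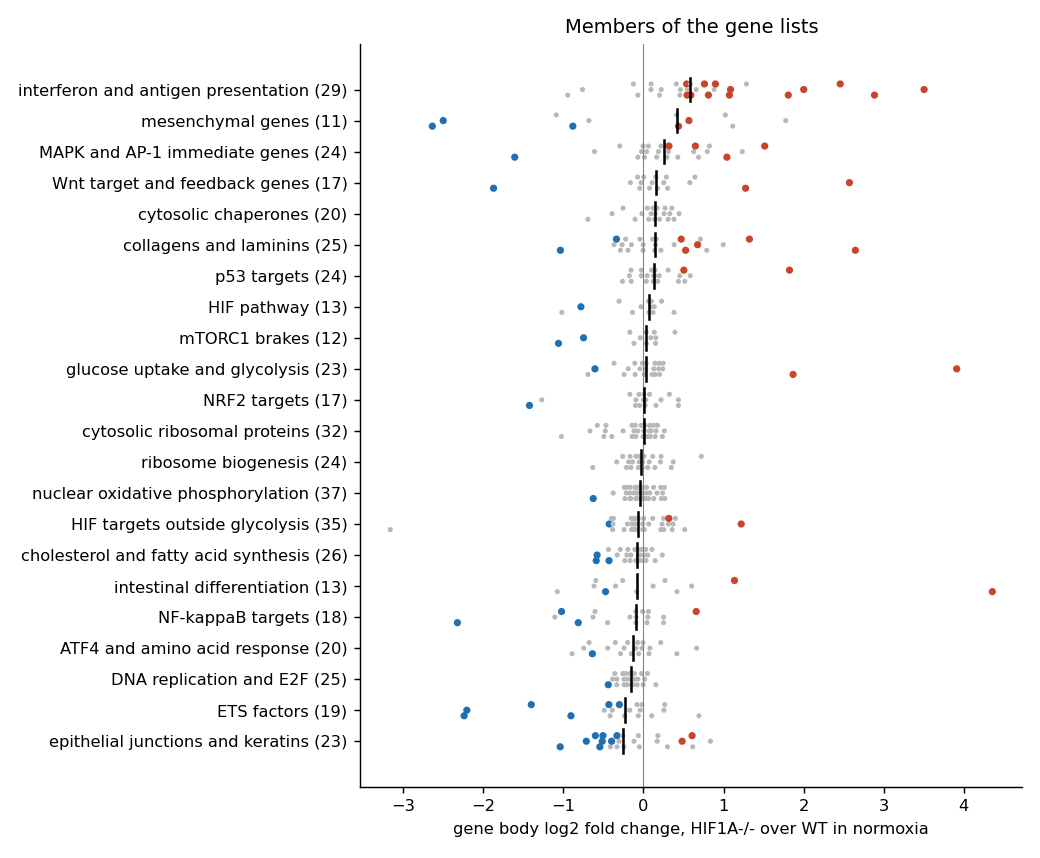
Gene body log2 fold change, HIF1A-/- over WT in normoxia (x), for the tested members of 22 gene lists (y, number tested in brackets), ordered by median. Red points were called higher, blue points lower and grey points not called, and black bars mark list medians, from -0.26 for epithelial junctions and keratins to 0.59 for interferon and antigen presentation.

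Of the 1609 called gene bodies, 502 (31.2%) had an adjacent tested gene called in the same direction. An adjacent gene called higher was found for 33.5% of those called higher and 8.13% of all tested, and one called lower for 29.4% of those called lower and 10.6% of all tested. In all, 56 runs of 3 or more held 194 genes, 30 runs higher and 26 lower. The longest was a cluster of 9 genes on chromosome 19 (chr19:21473961-24290154), all lower, with ZNF708, ZNF738, ZNF493, ZNF100, ZNF724, IPO5P1, ZNF91, ZNF675 and ZNF254, and log2 fold changes from -7.68 to -0.84. Of 398 tested genes with a ZNF symbol, 2 were called higher and 42 lower, 11.1% in either direction, with a median log2 fold change of -0.02. Among all 16184 tested, the shares were 4.33% higher, 5.61% lower and 9.94% in either direction. The ZNF share as a whole was thus near that of all genes, although most of its calls were lower. On chromosome 19, 0 of 174 genes with a ZNF symbol were called higher and 23 lower (13.2%). These zinc finger genes are close paralogs, as are the KLRC genes, so reads shared between copies may have been lost or assigned to one of them.

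A run of 7 lower genes on chromosome 6 (chr6:128321131-130764212) reached from the receptor phosphatase gene PTPRK to TMEM200A and included LAMA2 and SAMD3. The epidermal growth factor ligands EREG, AREG and BTC, adjacent on chromosome 4, were lower together. EREG, which encodes epiregulin, had 539 and 710 CPM in WT and 112 and 120 CPM in HIF1A-/- cells (log2 fold change -2.42, SE 0.136), and AREG and BTC had -2.03 and -1.57. On chromosome 17, SOX9-AS1, SOX9, LINC00673 and LINC00511 formed a lower run, and TMEM99, KRT20, KRT23, KRT39 and LOC100505782 a higher one. These runs were named after their values were seen. The median log2 fold change per autosome lay between -0.09 (chromosome 18) and 0.08 (chromosome 19). Gene bodies called lower were longer, with a median of 45.5 kb against 26.5 kb of those called higher and 24.97 kb of all tested, and the part of length in the calls was not tested.

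The same lines were compared in the 4 hypoxia libraries, whose values do not enter the normoxia fold changes but which share the fit, its spread and the replicate block, and so bear on which genes were called. With the 4 normoxia libraries alone 517 gene bodies were called higher and 709 lower. Of the 701 gene bodies higher in normoxia, 680 (97.0%) had a positive log2 fold change in hypoxia and 663 (94.6%) were higher in both pairs of replicate numbers, against 37.8% of all gene bodies. Of the 908 lower, 903 (99.4%) had a negative log2 fold change and 889 (97.9%) were lower in both pairs, against 34.0% of all. In hypoxia 584 and 801 of them were called the same way. Deviations of same-numbered libraries correlated between the conditions (r across genes 0.645 in WT and 0.849 in HIF1A-/- cells), so these libraries are not a separate test. The change of the line difference between normoxia and hypoxia was itself called at 62 gene bodies (0.383%), all negative, of which 6 were among the higher and 6 among the lower genes. At an unadjusted p under 0.05 it was positive at 326 and negative at 563.

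**Figure D4:**
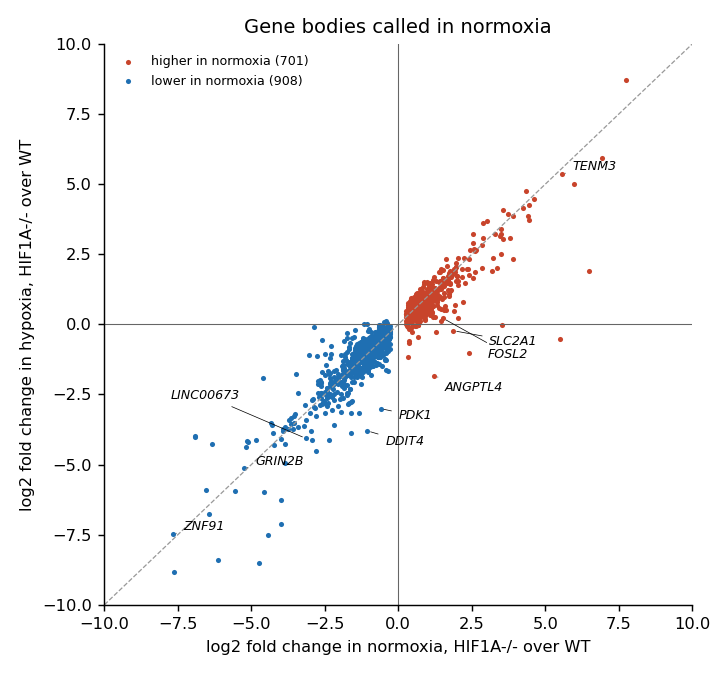
Log2 fold change of HIF1A-/- cells over WT cells in normoxia (x) and in hypoxia (y) for the 701 gene bodies called higher (red) and 908 called lower (blue) in normoxia; the dashed line marks equal values. Most genes lie near the line, while SLC2A1, ANGPTL4 and FOSL2 fall below it on the right and PDK1 and DDIT4 below it on the left.

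At the TSS, edgeR called 280 regions higher (1.90% of 14746) and 282 lower (1.91%), 3.81% in all, and 33 (0.224%) and 55 (0.373%) without the block, 0.597% in all. These counts rest on each library. In both directions they fell when replicate 1 of either line was left out and rose when replicate 2 of either line was left out. The cause was not tested. TSS counts were scaled by the total of their own table, so a loss or gain shared by all TSS regions would not appear in these calls. Of the 627 gene bodies called higher that were tested at the TSS, 492 (78.5%) had a positive TSS log2 fold change, against 47.3% of all genes tested in both, and 115 were called. Of the 713 lower, 604 (84.7%) had a negative one, against 52.7% of all, and 169 were called. No TSS was called against its gene body in the edgeR fit with the block, and 8 of the higher and 6 of the lower genes had a TSS difference the other way at an unadjusted p under 0.05.

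The leading TSS differences included transporter, adhesion and lipid genes. At SLC2A3 the TSS had 1.57 and 6.25 CPM in WT and 44.9 and 70.5 CPM in HIF1A-/- cells (log2 fold change 3.95, SE 0.333, edgeR adjusted p = 6.051e-08). At ITGB4, the integrin subunit of hemidesmosomes, it had 21.8 and 32.6 CPM against 123 and 113 CPM (2.13, SE 0.195). At SOAT2, which esterifies cholesterol, it had 9.20 and 7.55 CPM against 78.4 and 32.9 CPM (2.65, SE 0.276). All HIF1A-/- values were above the WT values there, as they were at the dehydrogenase gene DHRS2 (2.65) and the decoy receptor gene TNFRSF6B (1.34). At ELF3 the TSS had 475 and 587 CPM in WT and 57.9 and 92.8 CPM in HIF1A-/- cells (-2.84, SE 0.152, edgeR adjusted p = 2.307e-11). The uridine phosphorylase gene UPP1 had 109 and 111 CPM against 25.5 and 26.9 CPM (-2.06), and ZNF91, ADGRF1 and ZNF675 were nearly without TSS reads in HIF1A-/- cells, as they were in their bodies.

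The pausing index compares polymerase near the TSS with that in the gene body and rises when more of it is held at the promoter. In the fit over both regions it differed at 93 of 14061 genes (0.661%), 29 higher (0.206%) and 64 lower (0.455%) in HIF1A-/- cells, and at 4 (0.0284%) and 11 (0.0782%) without the block, 0.107% in all. These counts were 10 and 22 without HIF1A-/- replicate 1, 206 and 177 without HIF1A-/- replicate 2, 40 and 17 without WT replicate 1, and 151 and 223 without WT replicate 2. At LINC00673 the gene body fell more than the TSS, which had 1280 and 1652 CPM in WT and 671 and 764 CPM in HIF1A-/- cells, and the index was higher by 2.13 (log2, SE 0.198, edgeR adjusted p = 5.998e-05). At DKK1 the gene body rose more than the TSS, which had 295 and 316 CPM against 726 and 601 CPM, and the index was lower (log2 -1.46, SE 0.173, edgeR adjusted p = 0.00102). BMP4, a secreted morphogen (-1.19), and PLK2 (-1.37) also had lower indices, with gene body log2 fold changes of 1.66 and 1.82 and TSS values of 0.47 and 0.45. EPN3, an endocytic adaptor, had its lower index (-1.87) from the TSS, with a log2 fold change of -2.00 there and -0.20 in the body. MPP7, a polarity scaffold, had a higher index (1.88, lost without HIF1A-/- replicate 2), with -2.31 in the body and -0.43 at the TSS.

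**Figure D5:**
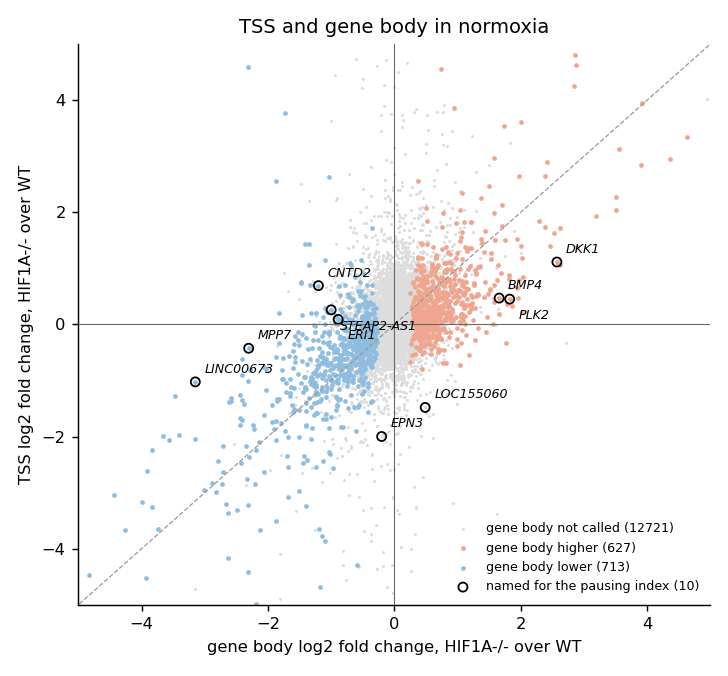
Log2 fold change of HIF1A-/- cells over WT cells at the gene body (x) and at the TSS (y) in normoxia for 14061 genes tested in both, of which 48 lie outside the axes; colours mark gene bodies called higher or lower and the dashed line equal values. Circles mark the 10 genes named for the pausing index, which lie off the line, with LINC00673 and MPP7 above it and DKK1, BMP4, PLK2 and EPN3 below it.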

How the data were processed

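The values deposited by the authors are raw counts of PRO-seq reads per RefSeq gene on GRCh37, without normalization. Per the submitters' processing notes and the study's methods, reads of 2 sequencing runs per sample were merged, trimmed, aligned with HISAT2 2.1.0 without spliced alignment, filtered with SAMtools 1.5 for a mapping quality above 10 and counted with featureCounts (Subread 1.6.2), in a TSS region from -50 to 500 (551 bp) and a gene body from 1001 to the gene end. A gene with several start sites is therefore represented by one, and reads from near-identical copies can be lost.

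Samples were grouped by the labels. From the counts, autosomal genes with more than 0.5 CPM in at least 2 of the 8 libraries were tested with edgeR 4.0.16 (R 4.3.3, TMM, quasi-likelihood F test), in 1 fit of all 8 libraries with 4 group means and the replicate number as a block, with Benjamini-Hochberg adjustment over all genes tested and an FDR of 10%. The pausing index was tested on TSS and gene body counts of each library as paired columns, with a term for each library. These columns were each scaled within their own table, so a shift of the index shared by all genes would not appear. CPM use each table's total times its TMM factor. As a check of pairing, the deviations of same-numbered libraries from their group means correlated across genes in every pair of groups (gene body r 0.505 to 0.849, TSS r 0.220 to 0.524), so the labels' numbers were taken to pair the samples. With 2 libraries per group no exact test over samples could pass the threshold. The p-values of the main fit measure the spread left after the replicate block, pooled over the 8 libraries. For gene bodies edgeR's common dispersion, its estimate of that spread, was 0.011 with the block and 0.0379 without it. The deviations correlated more within a line (r 0.645 in WT, 0.849 in HIF1A-/- cells) than across lines (0.505 to 0.531), so the 8 libraries are not fully independent. The alternatives were no block, DESeq2 1.42.0, library totals, other count filters, an FDR of 5%, the 4 normoxia libraries alone and leaving out each normoxia library. The tests were also run on simulated counts, drawn with a fixed spread and without deviations shared within a line. Of simulated 1.5-fold changes they recovered 16.4% at gene bodies, 14.9% at the TSS and 4.48% in the index. Of 2-fold changes they recovered 79.1%, 59.7% and 17.9%.

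Named genes were HIF1A, the HIF pathway, genes named by the study for normoxia, those with the smallest p or largest change that were called with and without the block, leading called members of each list, and genes at the floor of 3 reads; further list members, neighbouring genes and CA9 were added after their values were seen. Genes named for the smallest p or largest change had to show no overlap between the lines. The same held for leading list members and for genes named at the TSS or for the index. Their separation was therefore set by the choice and is no further support. The genes, lists and comparison were chosen with earlier results of these data known. Promoter windows come from the GRCh37 sequence. X- and Y-linked genes were not analysed here. Values of a few list members are not reported here, although the list counts include them.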

Additional observations from a re-analysis of the deposited data

Results flagged for a closer look

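For 10 of the named genes, the difference between the lines in hypoxia was called as differing from that in normoxia by the interaction term of the edgeR fit. Over all 16184 gene bodies 62 (0.383%) were called, all negative. HIF pathway and HIF target genes were named by choice, so the count of 10 is no result about the named genes as a set. Values are hypoxia minus normoxia on the log2 scale. PDK1 (-2.40, adjusted p = 0.00128), DDIT4 (-2.74, adjusted p = 0.00695), EGLN3 (-2.03, adjusted p = 0.0193), VEGFA (-1.18, adjusted p = 0.0254), EGLN1 (-1.35, adjusted p = 0.0300) and LINC00673 (-0.91, adjusted p = 0.0226) had negative log2 fold changes in both conditions, the larger ones in hypoxia, although EGLN1 and EGLN3 were not called in normoxia. ANGPTL4 (-3.06, adjusted p = 0.0220) and KDM4B (-1.50, adjusted p = 0.00311) turned from higher in HIF1A-/- cells in normoxia to lower in hypoxia, with hypoxia log2 fold changes of -1.84 and -1.18. SLC2A1 (-2.09, adjusted p = 0.0593) went from 1.87 in normoxia to -0.22 in hypoxia, where WT cells had 406 and 549 CPM and HIF1A-/- cells 482 and 334 CPM. FOSL2 (-1.29, adjusted p = 0.0177) went from 1.51 to 0.22.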

How the results depend on the processing

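With the 4 normoxia libraries alone, 120 TSS regions were higher and 152 lower, and the index was higher at 67 genes. DESeq2 called 140 and 146 TSS regions and an index at 19 and 42 genes. Without the low-count filter there were 557 and 442 TSS regions, and 79 and 119 genes by the index. At an FDR of 5% the counts were 441 and 564 for gene bodies, 149 for higher TSS regions, and 15 and 39 for the index. The fit without the replicate block gave 119 and 145 gene bodies, 33 and 55 TSS regions, and 4 and 11 by the index. Leaving out 1 normoxia library gave 256 to 461 gene bodies higher and 374 to 734 lower, 76 to 840 and 149 to 665 TSS regions, and an index at 10 to 206 and 17 to 223 genes. Counts by DESeq2, without the filter, with a stricter filter and with library totals stayed within 1.5 times of the 701 and 908 gene bodies.

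Settings were recomputed for 94 gene bodies, those of the naming rule and others given with values, and their direction held except for 6 genes that were not called, each reversing when 1 library was left out. With 1 library left out, HIF1A ran from -0.080 (without HIF1A-/- replicate 1) to 0.26, VHL from -0.079 to 0.0090 (without WT replicate 2), and CDK8 from -0.028 (without WT replicate 2) to 0.145. ARNT ran from -0.044 (without WT replicate 2, and -0.0059 without HIF1A-/- replicate 2) to 0.28, EGLN3 from -0.36 to 0.088 (without WT replicate 1, and 0.029 without HIF1A-/- replicate 2), and EPN3 from -0.47 to 0.039 (without HIF1A-/- replicate 1). The cause of these shifts was not tested. TSS and index counts rest on 2783581 to 4436063 reads per library, fewer than for gene bodies, and genes near the floor of 3 reads have bounds only.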
